A study of Homo sapiens with 27 samples.

Results

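Cytosolic ribosomal protein genes encode the proteins of the large and small subunits of the ribosome that translates nuclear messages. They were taken by symbol: RPL or RPS followed by a number, with the paralogs whose symbols end in A, L or X, the stalk genes RPLP0, RPLP1 and RPLP2, and RPSA. The rule found 81 of the 60683 genes in the tables. Of these, 79 passed the filter on low counts, 47 of the large subunit and 32 of the small subunit. The other members, RPL10L and RPL3L, are paralogs of RPL10 and RPL3; RPL10L was listed at 0 TPM (transcripts scaled per length and library) in every library and RPL3L reached at most 0.15 TPM, so neither was tested.

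The study sequenced polyadenylated RNA from MCF10DCIS.com cells. This human breast line, related to MCF10A, forms lesions that resemble ductal carcinoma in situ. Flasks seeded with 500000 cells received calcium oxalate crystals at 0.1 mg/mL after 6 h. The groups were 7 untreated controls (Control) and 4 libraries of each crystal form: monohydrate plates (COM), and dihydrate grown as dumbbells (DB), as spheres (SPH), as thick bipyramids (TK) or as thin bipyramids (TN). The labels name no genetic difference between groups, and the sources used here do not give the duration of exposure. Sample names carry serial numbers, which fall into runs of 1 to 10, 11 to 22 and 23 to 27, called sets 1, 2 and 3 here; the labels do not say what the number marks. All 4 TK libraries lie in set 2, whereas every other form has 2 libraries in set 1 and 1 in each of the others.

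Ribosomal proteins are needed in equal numbers, and their messages are among the most abundant of a growing cell. Most of these messages begin with a cytosine followed by a run of pyrimidines, the terminal oligopyrimidine (TOP) motif, through which mTORC1 and LARP1 control their translation and stability. Free RPL5 and RPL11, bound to 5S ribosomal RNA, inhibit MDM2 and so link faults in ribosome assembly to p53.

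The starts of the transcripts are shown because the TOP motif is what most members share in sequence beyond the naming rule. Of the 81 members, 64 had a start in the RefSeq promoter table (GRCh38.p14), and 46 of those (71.9%) began with C followed by at least 4 pyrimidines, against 5.14% of the 27305 genes in that table. Each line gives 10 bases before the listed start and 20 from it, 5′ to 3′ on the gene's strand. Capitals mark the pyrimidine run; RPS29 and RPS27L have none at the listed start. The first 8 genes were lower with DB, RPL21 was higher with COM, and RPS27, RPS6 and RPLP0 are shown for comparison.
RPL38, chr17:74203668-74203697, plus strand: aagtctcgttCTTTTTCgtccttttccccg
RPL37A, chr2:216498834-216498863, plus strand: gcgtctcttcCTTTCTgggctcggacctag
RPL24, chr3:101686699-101686728, minus strand: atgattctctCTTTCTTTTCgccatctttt
RPL11, chr1:23691796-23691825, plus strand: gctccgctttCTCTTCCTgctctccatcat
RPLP2, chr11:809957-809986, plus strand: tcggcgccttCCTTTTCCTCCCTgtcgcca
RPL39, chrX:119791611-119791640, minus strand: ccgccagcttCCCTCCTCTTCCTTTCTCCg
RPS29, chr14:49598691-49598720, minus strand: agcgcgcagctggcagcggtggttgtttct
RPS27L, chr15:63157458-63157487, minus strand: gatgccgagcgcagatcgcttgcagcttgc
RPL21, chr13:27251548-27251577, plus strand: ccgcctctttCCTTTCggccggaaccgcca
RPS27, chr1:153990752-153990781, plus strand: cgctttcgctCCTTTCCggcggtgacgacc
RPS6, chr9:19380217-19380246, minus strand: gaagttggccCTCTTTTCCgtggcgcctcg
RPLP0, chr12:120201092-120201121, minus strand: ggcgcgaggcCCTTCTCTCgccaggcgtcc
RPL39 had the longest run of those shown, 19 bases, and RPL37A and RPL21 had runs of 6.

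Libraries held 13115669 to 38672521 counts. The 8 basal epithelial markers summed to 7657 to 12159 CPM (counts scaled to a common library size), each with a median of at least 1 CPM. The 6 luminal markers summed to 2814 to 4486 CPM, 5 of them with such a median, and 7 fibroblast markers summed to at most 15.4 CPM. A further 10 liver markers summed to 54.2 to 1306 CPM, highest in TN B. In bulk RNA, fewer cells and less RNA per cell cannot be told apart. Mean fragment length was 258 to 319 nt in set 1, 198 to 243 nt in set 2 apart from TN C (297 nt), and 215 to 248 nt in set 3. The members were short for their abundance, with mean lengths from 300.4 nt (RPS29) to 1443 nt (RPS4X). Because the labels name no separate cultures behind the replicates, p-values here measure only how these samples vary, and that variation may be technical.

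In untreated cells the 79 expressed members covered a wide range of levels per length. The control means ran from 110 TPM (RPL39L) to 7172 TPM (RPL41), with a median of 2748 TPM. RPL41, the smallest protein of the large subunit, stood at 7172 TPM ± 736 (SD, n = 7), and RPS29, a zinc-binding protein of the small subunit, at 6300 TPM ± 531 (SD, n = 7). RPS18 stood at 5508 TPM ± 326 and RPS27 at 5396 TPM ± 867 (SD, n = 7 each), so the order of those 4 genes is not separated at each step by their spread. At the low end were 3 genes: RPL39L, a paralog of RPL39, at 110 TPM ± 22.9, RPS27L, a p53-responsive paralog of RPS27, at 215 TPM ± 20.4, and RPS26 at 542 TPM ± 74.0 (SD, n = 7 each). RPL38, a large subunit protein needed for translation of certain Hox messages, had 3085 TPM ± 487.

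The members together took 6.45% (DB A) to 9.30% (Control D) of all counts. By group the share was 8.10% ± 0.794 in controls (SD, n = 7), 7.88% ± 0.647 with COM, 6.95% ± 0.577 with DB, 7.74% ± 0.700 with SPH, 7.70% ± 0.514 with TK and 7.68% ± 0.424 with TN (SD, n = 4 each). Libraries within a set differed as much as groups did. In set 1, Control A had 8.24%, COM A 8.55% and SPH A 8.32%, whereas Control B had 6.68%, COM B 7.002% and SPH B 6.72%, next to DB A at 6.45% and DB B at 6.63%. DB A and DB B were thus below both set 1 controls, close to Control B and far from Control A.

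**Figure D1:**
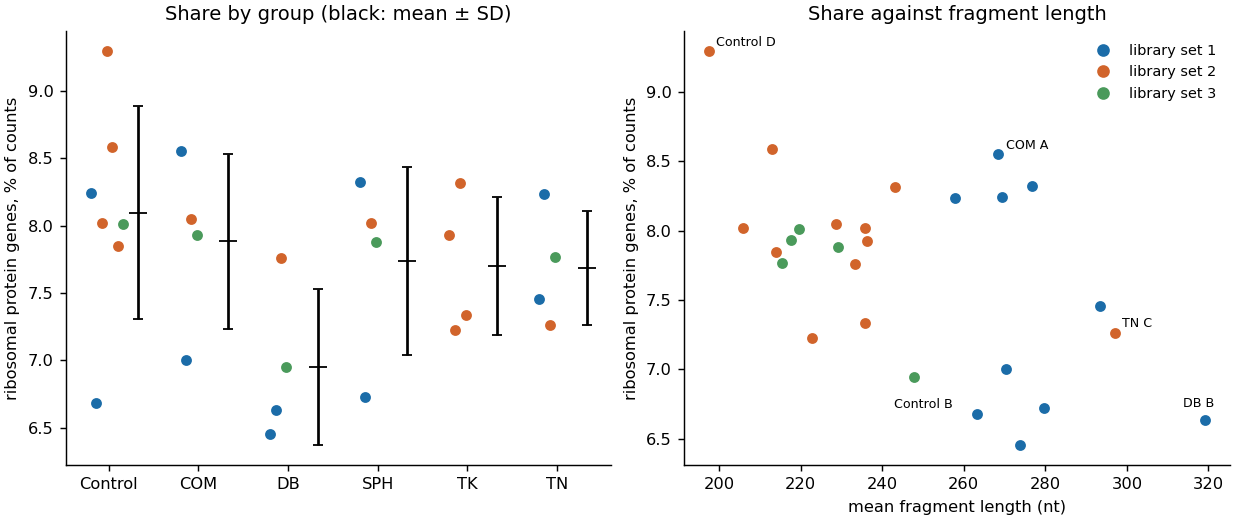
Left, the percentage of counts in ribosomal protein genes per library by group (points, coloured by library set), with the group mean and SD in black. Right, the same percentage against mean fragment length in nt; Control D (9.30%, 198 nt) and DB B (6.63%, 319 nt) lie at opposite corners.

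The first question was whether any crystal form changed these genes. DB lowered 17 of the 79 members and raised none (edgeR's quasi-likelihood test with the library set as a term, Benjamini-Hochberg adjusted over 16173 genes). Over all genes tested, 4.1% were called lower with DB, 5.92% higher and 10% in either direction. All 79 members had a change below 0, from -0.61 to -0.02 on the log2 scale, with a median of -0.23 against a median of -0.00 over all genes. The 47 large subunit genes (12 called, median -0.22) and the 32 small subunit genes (5 called, median -0.24) moved alike in size. Under scaling by median ratios, by total counts or by genes outside the family the median was -0.21 to -0.23.

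RPL38 gave the lowest adjusted p of the family. In set 1 it had 404 and 329 CPM in the controls and 290.5 and 243 CPM with DB. The set 2 controls had 474, 514, 529 and 564 CPM and DB C had 361 CPM; in set 3 the control had 559 CPM and DB D 334 CPM. Every DB library was below every control of its own set, although the set 1 controls overlapped DB C and DB D. RPL38 fell by 0.60 on the log2 scale (SE 0.14, adjusted p = 0.0082 by edgeR).

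RPS29 had 367 and 289 CPM in the set 1 controls against 247 and 211 CPM with DB. The set 2 controls had 417, 492, 526.1 and 544 CPM against 358 CPM in DB C, and in set 3 the control had 466.5 CPM against 288 CPM in DB D. It too was lower with DB in each set, by 0.61 on the log2 scale (SE 0.18, adjusted p = 0.0276 by edgeR). RPL11, whose free form binds MDM2, had 803 and 650.4 CPM in the set 1 controls and 644 and 560 CPM with DB, so that DB A and Control B were close. The set 2 controls ran from 943 to 1082 CPM with DB C at 829.5 CPM, and Control G had 1049 CPM against 690.03 CPM in DB D. RPL11 fell by 0.38 (SE 0.10, adjusted p = 0.0183 by edgeR), while its partner RPL5 changed by -0.18 (SE 0.07, adjusted p = 0.0993) and was not called.

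RPL37A, RPL27 and RPL24, all on the large subunit, fell by 0.47 (SE 0.14), 0.42 (SE 0.13) and 0.38 (SE 0.11) on the log2 scale, with adjusted p of 0.0351, 0.033 and 0.0286 by edgeR. Those 3, with RPS29 and RPL38, were the 5 largest falls among the members called. RPL39, a small protein at the wall of the exit tunnel, fell by 0.38 (SE 0.12, adjusted p = 0.0492 by edgeR), just within the threshold of 0.05, and the call was lost in 21 of the 27 refits that left out a library. RPL37 fell by 0.36 (SE 0.11) and RPS27L by 0.34 (SE 0.10).

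The stalk, the flexible arm that recruits translation factors, is built from RPLP0, RPLP1 and RPLP2. RPLP2, the shortest of these genes at 461 nt, fell by 0.35 (SE 0.11, adjusted p = 0.0378 by edgeR), RPLP1 changed by -0.25 (SE 0.11, adjusted p = 0.173), and RPLP0, its base, by -0.05 (SE 0.09, adjusted p = 0.802); the differences between these genes were not tested. RPLP0 had 2997 and 2220.3 CPM in the set 1 controls and 2279 and 2473 CPM with DB, which lay between them. Other well-known members were not called with DB. These include RPS6, the substrate of S6 kinase, at -0.18 (SE 0.09), RPSA, the laminin-receptor homolog, at -0.18 (SE 0.09), RPS3 at -0.28 (SE 0.11) and RPS27A, a ubiquitin fusion, at -0.20 (SE 0.11). RPL41 stood at -0.34 (SE 0.13) and RPS27 at -0.29 (SE 0.11), also not called. The remaining members called lower were RPS15, RPS25, RPL36, RPL35A, RPL14, RPS28 and RPL17.

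The count of 17 rested on single libraries. It was 1 (RPL38) without DB B, 2 without DB A and 2 without DB D, but 18 without DB C. Leaving out Control A gave 3, Control G 4, Controls D and E 7 each and Control F 11, whereas leaving out Control B, whose share of counts was close to that of DB, gave 41. The share of all genes called lower moved too, from 4.1% with all libraries to 1.8% without DB B. It was 3.37% without Control D and 5.86% without Control B. The median of the family stayed between -0.29 and -0.19 in those refits and in those that left out another library, and RPL38 was called in every one of the 27. DESeq2 called 33 members, all lower, the 17 among them, and 12.7% of all genes in either direction. With the replicate letter in place of the library set, edgeR called no member (42 at an unadjusted p under 0.05, 2.53% of all genes called) and the median was -0.22. Letters E, F and G occur only among the controls, so in that model Controls E, F and G do not enter the comparison. Letter D there joins Control D of set 2 with DB D of set 3.

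Within sets the tests had few libraries and called no member with DB (edgeR; members at an unadjusted p under 0.05 were 7, 5 and 13), against 2.1%, 0.526% and 2.28% of all genes in sets 1, 2 and 3. The family medians were -0.23, -0.18 and -0.20. In set 1 both DB libraries were below both controls for 38 members, where this held for 21% of all genes; in set 2 DB C was below all 4 controls for 55 members (24.4% of all genes), and in set 3 DB D was below the control for 66 (50.6%). The DB effect of set 1 less that of set 2 was called for no member by edgeR, and no member had an unadjusted p under 0.05 (0.0866% of all genes called).

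**Figure D2:**
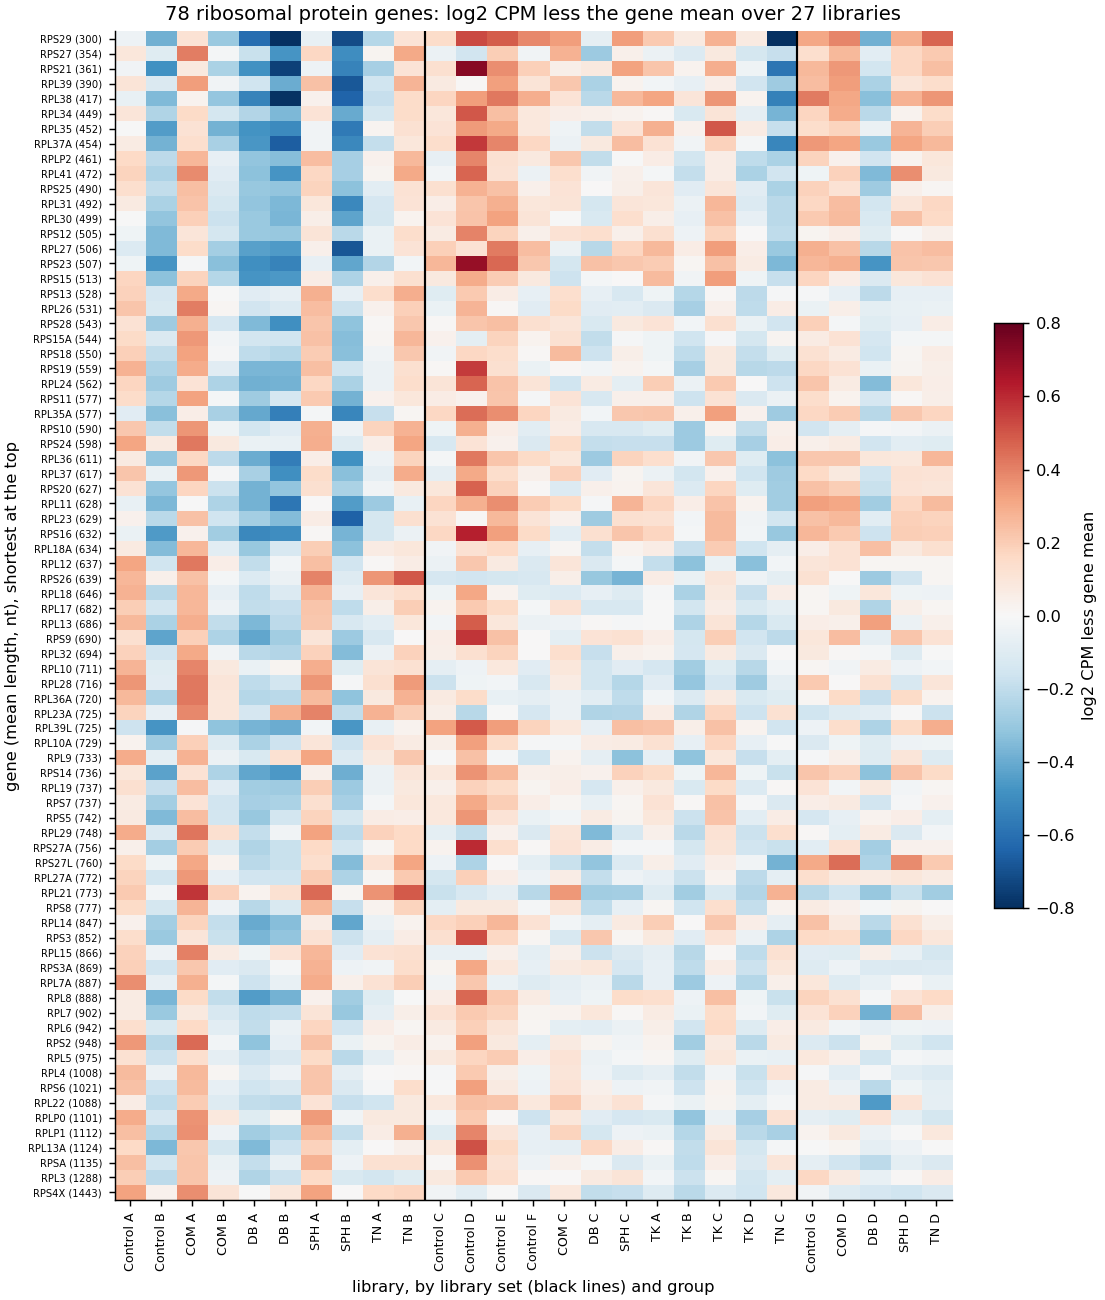
Log2 CPM of 78 of the 79 tested members less each gene's mean over 27 libraries, with genes ordered by mean length (nt, in parentheses) and libraries by set (black lines) and group. Control B and SPH B lie below the gene's mean in 76 of the 79 members each, next to DB A in 78.

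Length went along with the size of the fall. Over the 79 members the DB change correlated with log10 gene length (r 0.63, rho 0.60, a description over genes, which are not independent replicates). Genes outside the family showed the same order. Those under 500 nt had a median DB change of -0.47 (211 genes), those of 500 to 700 nt -0.26 (492 genes), those of 700 to 1000 nt -0.16 (1039 genes), those of 1000 to 1500 nt -0.07 (2256 genes) and those of the longest class 0.07 (1804 genes). The members in the same classes had medians of -0.35 (14 genes), -0.26 (29 genes), -0.18 (27 genes) and -0.17 (9 genes). Below 1000 nt the members were therefore close to, or less reduced than, other genes of their length, and between 1000 and 1500 nt they were lower.

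With a trend over gene length removed from each library, fitted on genes outside the family, the DB median of the members became 0.01 and 2 were called (10.6% of all genes). RPL38 remained lower, by 0.23 on the log2 scale (adjusted p = 0.0401 by edgeR), and RPS12, of the small subunit, was higher by 0.19 (adjusted p = 0.024). RPS29 then stood at -0.14 and RPL11 at -0.12, neither called, and RPLP2 and RPL39 turned to 0.01 and 0.02. With mean fragment length as a covariate the median was -0.18 and no member was called by edgeR (16 at an unadjusted p under 0.05), although 4.38% of all genes were. DB held the longest fragments of set 1 (DB B, 319 nt) and of set 3 (DB D, 248 nt), while DB A had 274 nt in set 1 and DB C 233 nt in set 2, both within the range of other libraries of their set. Fragment length, gene length and the crystal form cannot be told apart by these 4 libraries.

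**Figure D3:**
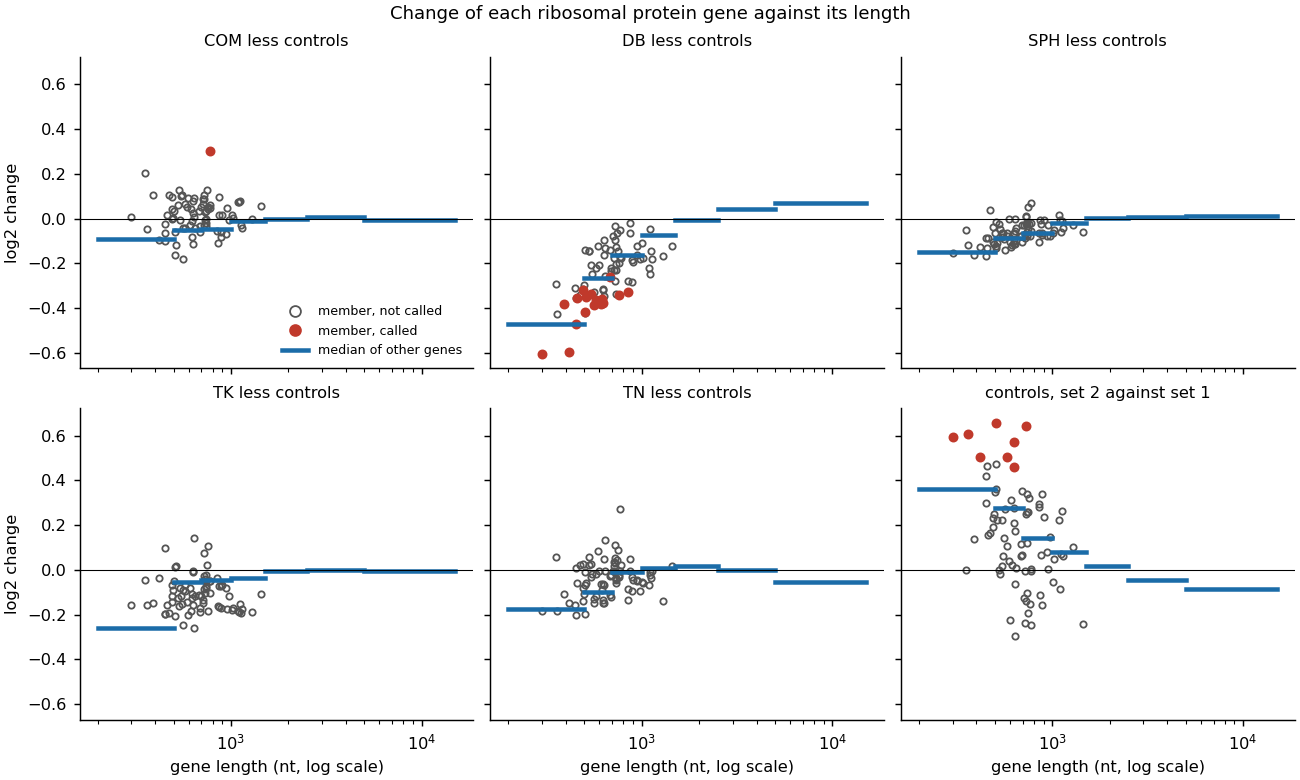
Log2 change of each of the 79 members against mean gene length (nt, log scale) for the 5 forms and for untreated controls of set 2 against set 1; filled points were called, and blue lines give the median of other genes in a length class. With DB the lines rise from -0.47 under 500 nt to -0.07 at 1000 to 1500 nt. The member medians rise less, from -0.35 to -0.17 in those classes. Between the control sets the slope is the opposite.

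Fragment length and member share were also set side by side within sets, without a test. In set 1 the correlation was r -0.38 (rho -0.33, n = 10) and -0.27 without DB B and TN A, the 2 libraries farthest from the median. In set 2 it was r -0.58 (rho -0.36, n = 12) and -0.14 without TN C and Control D, so the relation rests on those libraries. Control B and Control A, with 263 and 269 nt, had shares of 6.68% and 8.24%, a difference that fragment length did not follow.

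COM raised 1 member, RPL21, and lowered none; 6.36% of all genes were called with COM, 3.94% higher and 2.42% lower. RPL21 is a large subunit protein with many processed pseudogenes, and its gene hosts a small nucleolar RNA. Its level was 486 and 415 CPM in the set 1 controls against 626 and 478 CPM in COM A and COM B. In set 2 the controls had 360.2 to 400.04 CPM and COM C 535 CPM, and in set 3 the control had 360.2 CPM and COM D 376 CPM. COM libraries were higher than the mean control of their set, with overlap in set 1. RPL21 rose by 0.30 on the log2 scale (SE 0.09, adjusted p = 0.048 by edgeR). That call was lost in 20 of the 27 refits that left out a library, where the change ran from 0.19 (without COM C) to 0.37 (without COM B).

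TN gave RPL21 a similar change of 0.27 (SE 0.09, adjusted p = 0.0538 by edgeR), which missed the threshold. It had 540 and 591 CPM in TN A and TN B, 510.01 CPM in TN C and 347 CPM in TN D, so the single set 3 library stood apart from the others. DB, SPH and TK left RPL21 at -0.05, 0.07 and -0.05. RPL21 was also the member that, with RPL23A, RPL15 and RPS26, followed the family mean least across libraries (r 0.55 for RPL21 and 0.52 for RPL23A over 27 libraries centred by set), whereas RPL17 followed it most closely (r 0.97).

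SPH, TK and TN called no member by edgeR. Unadjusted p-values under 0.05 were found for 0, 5 and 1 members, and the shares of all genes called were 0.111%, 15.4% and 11.7%. The family medians were -0.06 with SPH, -0.11 with TK and -0.04 with TN, and that of COM was 0.01, within the 0.14 SD of the family median between libraries of a group and set. With TK the lowest member was RPL12 of the stalk base, at -0.26 (SE 0.09, adjusted p = 0.0588 by edgeR). Without Control B, 2 members were called with TK. Without a set term RPL12 was called, and DESeq2 also called it lower (adjusted p = 0.041) in TK and RPL21 higher (adjusted p = 0.031) in TN.

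Within set 1 the family median was 0.09 with TN, 0.12 with COM and 0.00 with SPH; within set 2, where each of these forms is 1 library, it was -0.21, -0.06 and -0.11. Within set 2, TN C was called lower for 5 members (1.55% of all genes): RPS29 at -1.29, RPS21 at -0.95, RPL38 and RPL37A at -0.85 each and RPS23 at -0.78 on the log2 scale. RPS29 had 203 CPM in TN C, below the 4 set 2 controls, against 321 and 407 CPM in TN A and TN B and 521 CPM in TN D. TN A and TN B against their controls, less TN C against its own, gave a difference called for 5 members (5.81% of all genes by edgeR), RPS29, RPS21, RPL38, RPS23 and RPL39L. TN C has fragments of set 1 length (297 nt), and genes outside the family under 500 nt had a median of -0.995 in TN C against the set 2 controls. Its placing by serial number is uncertain, and these values describe that 1 library, not TN in set 2.

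A test over all 6 groups called 6 members (23.2% of all genes): RPS26 (adjusted p = 0.0195 by edgeR), RPL21 (0.0207), RPS27L (0.0373), RPL38 (0.0403), RPS24 (0.0463) and RPS27 (0.0473). RPS26, which lies at the messenger exit channel and is lost from some ribosomes under stress, stood at -0.26 (SE 0.09) with DB and at 0.14 (SE 0.09) with TK and 0.13 (SE 0.08) with TN, none called against controls. In set 1 it had 223 and 190.0 CPM in the controls, 171 and 179 CPM with DB and 236 and 262 CPM with TN. The count ran from 1 without DB A to 13 without TN C, with 12 without Control B or SPH B. The shares of all genes called in those refits are not given here.

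Pairs of crystal forms were then compared directly, all at 0.1 mg/mL, in 10 comparisons. Adjusted within each comparison by edgeR, DB was lower than TK in 5 members (8.9% of all genes lower), lower than TN in 2 (5.68%), and COM was higher than TK in 3 (7.65%); the other 7 pairs called none. In those 7 the share of all genes called was 0.198% (COM and DB), 0.544% (COM and SPH), 5.03% (COM and TN), 0.247% (DB and SPH), 5.6% (SPH and TK), 1.27% (SPH and TN) and 0.216% (TK and TN), and 49, 3, 0, 19, 1, 1 and 1 members had an unadjusted p under 0.05. Adjusted over the 10 pairs together, COM was higher than DB in 9 members (0.655% of all genes), DB lower than TK in 2 (5.87%) and lower than TN in 1 (3.98%), and the COM against TK calls were lost (9.94%). The remaining pairs again called no member, with 1.6% (COM and SPH), 4.91% (COM and TN), 1.22% (DB and SPH), 5.18% (SPH and TK), 2.73% (SPH and TN) and 1.21% (TK and TN) of all genes called.

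The 9 members higher with COM than with DB included RPS27, RPL39, RPL37, RPS27L, RPL21, RPS18, RPS24 and RPL22. RPS27 differed by 0.49 (SE 0.12, adjusted p = 0.0139 over the pairs by edgeR), and within that comparison alone its adjusted p was 0.0914. The family median was 0.26 for COM less DB, with 79 of 79 members above 0. RPS27L and RPS26 were lower with DB than with TK by 0.45 (SE 0.12) and 0.40 (SE 0.10), with adjusted p of 0.0243 and 0.0242 over the pairs by edgeR. RPS26 was lower with DB than with TN by 0.39 (SE 0.09, adjusted p = 0.0145).

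Among the dihydrate forms, DB and SPH differed by a median of -0.16, with 19 members at an unadjusted p under 0.05 and none called by edgeR under either adjustment (0.247% of all genes within the comparison). TK and TN, thick and thin bipyramids, differed by a median of -0.07 and called none (1 at an unadjusted p under 0.05, 0.216% of all genes called). Without TN C, DB was lower than TN in 23 members, where all libraries gave 2 (5.68% of all genes lower). The comparison of COM with TK ran from 0 to 4 calls, and that of DB with TK from 2 to 8, as libraries were left out in turn. The shares of all genes called in these refits are not given here, so the counts are not read as a result about the family.

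The untreated controls themselves differed by set. Set 2 controls were higher than those of set 1 in 8 members and lower in none (6.47% of all genes higher, 7.46% lower), with a median of 0.14. RPS23 was higher by 0.66 (SE 0.15, adjusted p = 0.00609 by edgeR), RPL39L by 0.64 (SE 0.13), RPS21 by 0.61 (SE 0.18), RPS29 by 0.59 (SE 0.17), RPS16 by 0.57 (SE 0.15), RPL38 by 0.51 (SE 0.16), RPL35A by 0.50 and RPL11 by 0.46 (SE 0.12). RPL39L had 37.0 and 29.9 CPM in the set 1 controls and 47.0 to 58.3 CPM in those of set 2, without overlap. Of those 8 genes, RPL11, RPL38, RPL35A and RPS29 were also among the 17 that fell with DB. The set 1 controls enter both comparisons, and the overlap over all genes is not given here. Genes outside the family under 500 nt had medians of -0.47 with DB and 0.36 between the control sets. Without Control B no member was called between the control sets and the family median was -0.03, and without Control D 5 were called.

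After the length trend was removed the control sets differed in 22 members, 16 lower and 6 higher in set 2 (18.3% of all genes), and RPL39L (0.46), RPS23 (0.38), RPS16 (0.35), RPL11 (0.24) and RPS21 (0.23) were among the 6 higher. Of the 13 messages encoded by mitochondrial DNA, 12 were lower in the set 2 controls (median -0.96), and of the 16 hosts of small nucleolar RNAs, themselves mostly TOP genes, 9 were higher, among them GAS5 by 0.40 and SNHG1 by 0.37. Set, fragment length and any difference in the cells cannot be told apart here.

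**Figure D4:**
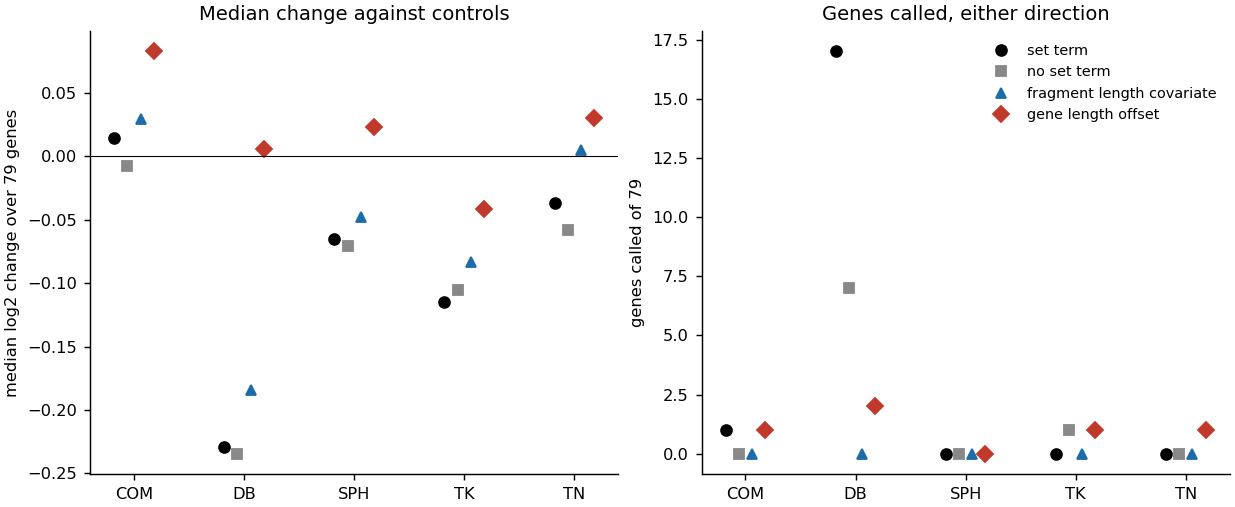
Left, the median log2 change of the 79 members against controls for each form; right, the number called, under 4 models: with the library set as a term, without it, with fragment length as a covariate, and with a gene length trend removed. The DB median of -0.23 moves to 0.01 once the length trend is removed, and its count from 17 to 2.

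Members with and without a pyrimidine run at the listed start were then compared, as a description. The class rests on the listed RefSeq starts alone, and whether messages start elsewhere in these cells was not tested. Median lengths were 630 nt with a run and 733 nt without. With DB the 46 genes with a pyrimidine run at the listed start had a median of -0.24 (10 called), the 17 without one -0.22 (6 called), and 16 with no listed start -0.21 (1 called). With TK the medians were -0.15 and -0.08, with no member called in either. RPS29, RPL27, RPS15, RPS28, RPL17 and RPS27L were the 6 called without a run at the listed start. They include the member with the largest fall, whereas RPL39, with the longest run of those shown above, fell by 0.38.

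Other TOP messages outside the family were mostly not called with DB, in which 2 of 23 were lower: HNRNPA1 by 0.26 (SE 0.08) and NACA, a chaperone of nascent chains, by 0.24 (SE 0.07). With TK and TN, EIF4A2, a helicase of translation initiation, fell by 0.37 (SE 0.08) and 0.34 (SE 0.08), and EIF4B fell with TK by 0.23 (SE 0.07). Among 7 ribosomal genes that the naming rule misses, RPL36AL fell with DB by 0.43 (SE 0.13, adjusted p = 0.0358 by edgeR). FAU, which encodes a small subunit protein as a fusion, stood at -0.25 (SE 0.11) and was not called. FAU was also among the 5 genes outside the family whose set-centred log2 CPM was most like the family mean over 27 libraries (r 0.91), after CUEDC2 (0.94), COX8A (0.93), MRPL24 (0.93) and NACA (0.92).

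Genes that build ribosomes were also counted. In TK, 24 of 42 ribosome biogenesis genes rose and none fell, with a median of 0.30, whereas no ribosomal protein was called; 8.04% of all genes rose. In TN, 13 rose and 1 fell (6.84% and 4.88% of all genes). In the untreated controls 18 of the same 42 were higher in set 2 than in set 1 and none lower, with a median of 0.25, and all TK libraries lie in set 2. NOP56, a box C/D particle protein, rose by 0.58 with TK (SE 0.11, adjusted p = 0.00103 by edgeR) and 0.46 with TN (SE 0.11), and DDX21, a nucleolar helicase, by 0.35 (SE 0.07) and 0.39 (SE 0.07). NCL, which encodes nucleolin, rose with TK by 0.33 (SE 0.09) and stood at 0.08 (SE 0.09) with TN.

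In DB only DDX21 rose, by 0.24 (SE 0.07), and FBL, the rRNA methyltransferase fibrillarin, GNL2 and NAT10 fell by 0.32 (SE 0.10), 0.31 (SE 0.06) and 0.22 (SE 0.07). COM lowered MDN1 alone of that list, by 0.45 (SE 0.11, adjusted p = 0.0135 by edgeR). For TK the count was 22 within set 2 (6.41% of all genes rose), 29 with the length trend removed (11.3%) and 28 with fragment length as a covariate (8.67%). For TN the number that rose was 23 without TN C (6.88% of all genes). It was 0 with the replicate letter in place of the set (1.39% of all genes, with 11 of the 42 at an unadjusted p under 0.05 by edgeR). Within set 2, where TN C is the only TN library, the median of the 42 was -0.04. The number that fell with DB was 10 without Control B (5.86% of all genes). Among the 22 genes of RNA polymerases I and III, 4 rose and 1 fell with TK (8.04% and 7.33% of all genes), among them RRN3, which starts ribosomal RNA synthesis, by 0.20 (SE 0.06) and POLR1B by 0.32 (SE 0.09).

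The paralogs RPL22L1 and RPL7L1, which the naming rule leaves out, were higher with TK and TN. RPL7L1, a factor of large subunit assembly, rose by 0.41 with TK and 0.42 with TN (SE 0.06 each, adjusted p of 0.000121 and 0.000117 by edgeR). RPL22L1 rose by 0.39 with TK and 0.37 with TN (SE 0.11 each, adjusted p of 0.0152 and 0.024). RPL22 and RPL7, the genes they resemble, were not called; RPL22 stood at -0.18 (SE 0.08) with TK and -0.07 (SE 0.08) with TN, and RPL7 at -0.07 (SE 0.09) and -0.05 (SE 0.09). Among 20 regulators of ribosomal protein synthesis, 2 rose and 3 fell with TN (6.84% and 4.88% of all genes). With TK 4 rose (8.04% of all genes), including LARP1, the binder of TOP messages, by 0.28 (SE 0.07) and RPS6KB1, an S6 kinase, by 0.18 (SE 0.06). MDM2 was called higher with both forms and lower in the set 2 controls than in those of set 1.

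Mitochondrial ribosomal proteins fell with DB in 21 of 78 cases, such as MRPL24 by 0.35 (SE 0.09), and none rose; 4.1% of all genes fell. They had a median of -0.20 and a median length of 1120 nt. Respiratory chain subunits, at a median length of 694 nt, fell in 32 of 73 cases with a median of -0.33, NDUFB4 among them by 0.38 (SE 0.08). With the length trend removed those counts were 12 and 14 (4.4% of all genes), without DB B 6 and 13 (1.8%), and with the replicate letter in place of the set 3 and 3 (0.903%). With TK, 7 of 78 mitochondrial ribosomal proteins rose, a share near the 8.04% of all genes, and none fell; with the trend removed 24 rose (11.3% of all genes).

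**Figure D5:**
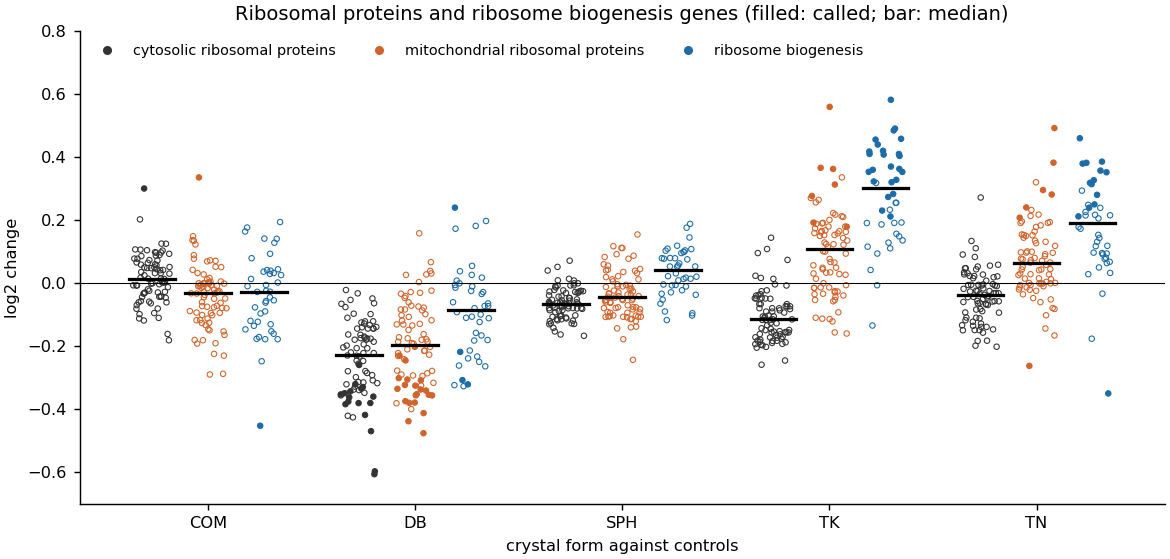
Log2 change against controls for the 79 cytosolic ribosomal protein genes, 78 mitochondrial ribosomal protein genes and 42 ribosome biogenesis genes in each form; filled points were called and bars are medians. With TK the biogenesis median is 0.30 and the cytosolic ribosomal protein median -0.11, and with DB every cytosolic gene lies below 0.

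Pseudogene copies limit the values of single members. The tables list 1194 ribosomal protein pseudogenes, which took 0.034% to 0.114% of counts, and a read that fits a member and its copies is divided between them by the authors' counting. RPL21, RPL23A and RPS26 are such genes. Of 34 pseudogenes tested, DB lowered 3 (4.1% of all genes), RPL21P16, RPL23AP42 and RPL32P29, and raised 1 (5.92% of all genes), RPS3AP26. The changes of the 34 ran from -1.33 to 3.81 on the log2 scale. RPS3AP26 was also called higher with COM and TN. The parents RPL21, RPL23A, RPL32 and RPS3A were not called with DB. Genes that host small nucleolar RNAs or overlap another gene may share reads with it, because the sources used here do not give the strand setting.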

How the data were processed

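Expected counts, TPM and gene lengths were used as the authors deposited them, 1 table per library, per the file headers; Trim Galore, Bowtie2, RSEM and the GRCh38 build are named in the submitters' processing notes. The sources used here do not give versions, annotation or strandedness. RSEM divides a read that fits several genes into fractions. The deposited expected counts were rounded; TPM values, scaled by the authors per length and library, served only for levels between genes. Mean fragment length per library was estimated as a median over long genes only. The value taken was the deposited length less the effective length, plus 1. RSEM takes the effective length from the fragments. Genes were filtered by filterByExpr, scaled by TMM and tested in edgeR 4.0.16 (R 4.3.3) with group and library set as terms, Benjamini-Hochberg adjusted over all genes at 0.05; SE values come from the log2 change and its F statistic. CPM values are TMM-scaled, except the sums over cell type markers, which were scaled by total counts.

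Members and gene lists were chosen with earlier results of these data known. The 5 largest rises and falls called per comparison, a list of well-known members and the 5 most similar other genes were named; RPS12, RPL12, RPL23A, RPL15, RPL17, RPS18, RPS26, RPS24 and the other members and list genes described were chosen after their values were seen. Alternatives were other scalings, no filter, DESeq2 1.42.0, models without the set, with replicate letter, fragment length or depth, a lowess trend over gene length (span 0.3), and leaving out each library; the last for pairs of forms, and the alternatives for other gene lists, were added after seeing the data. Log2 CPM used a prior count of 2. The scripts were tested on simulated data. Replicate letters were not taken to pair samples in the main model. Of 60 same-lettered pairs, 27 correlated above 0.1. Pairs of TK A or TK B with other groups, and of Control D with groups other than TK, cross library sets. The correlations therefore do not decide whether letters mark a pairing. Every pair of same-group libraries differed by more than sampling noise (chi-square per degree of freedom from 2.46 to 70.4). Coordinates and starts are RefSeq's for GRCh38.p14.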

Additional observations from a re-analysis of the deposited data

Results flagged for a closer look

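RPL22, a large subunit protein whose paralog is RPL22L1, stood at 348.9 CPM in SPH B, apart from the other SPH libraries at 427 to 431 CPM. It was the single such library among 78 combinations of 13 quantities and 6 groups checked, where chance finds about 1 in 20. Control B, COM B and DB B, also of set 1, had 345, 370 and 343 CPM, so SPH B lies within the range of that set.

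TN A and TN B against the set 1 controls, less TN C against the set 2 controls, gave a difference called for 5 members by edgeR: 1.44 for RPS29, 1.13 for RPS21, 1.04 for RPL38, 0.9 for RPS23 and 0.78 for RPL39L on the log2 scale. In each the change was higher in set 1. The set 2 arm is the single library TN C, with fragments of 297 nt, so the values describe that library and not a TN effect that differs by set; the part of fragment length in it was not tested.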

How the results depend on the processing

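The DB median kept its sign in every alternative run except the removed length trend (0.0059), as did RPLP2 (0.0059) and RPL39 (0.0164). The count of 17 with DB was 0 within each set, with the replicate block (letters in place of sets) and with fragment length, 7 without the set term, 5 with depth, 2 with the length trend and 33 by DESeq2, and 1 to 41 as libraries were left out. The replicate block also gave 0 for COM, 0 for SPH, 2 for TK (RPS24 and RPL12, lower), 0 for TN and 4 over all groups. In that block Controls E, F and G share a letter with no crystal library and do not enter the comparisons. Same-lettered libraries correlated at -0.158 to 0.446 and 27 of 60 pairs exceeded 0.1; Control with COM, DB or SPH gave 0.145 to 0.424 for letters A to C and -0.021 to 0.1 for letter D. The COM count of 1 was 0 within each set, without the set term, with the block, with fragment length, with TN C in set 1, with scaling by other genes and without a filter, and 0 to 1 with libraries left out. TK's 0 was 1 without the set term, by total counts, with the length trend and by DESeq2, and 0 to 2 with libraries left out. TN's 0 was 5 within set 2 (median -0.2051), 1 by total counts, without a filter, with the length trend and by DESeq2, and 0 to 1 with libraries left out. Over all groups 6 became 0 without the set term, 2 with fragment length, 3 with the length trend, 15 by DESeq2 and 1 to 13 with libraries left out. COM against TK (3) gave 6 without the set term, 8 with the length trend and 0 to 4 with libraries left out. DB against TK (5) gave 8, 3 with fragment length, and 2 to 8; DB against TN (2) gave 0, 5 with fragment length, 0 with the trend, and 1 to 23. COM against DB and SPH against TK gave 0 to 1. Set 2 against set 1 controls (8) gave 18 by total counts, 19 without a filter, 22 with the length trend (median -0.0547), and 0 to 12 with libraries left out (median -0.0306 to 0.3388). These counts stand without the share of all genes called, which also moved between settings. The causes were not tested. TK lies in 1 set, and set 3 holds 1 library a group. Depth differed between groups, with a mean of 29063885 counts in DB and 21378520 in controls, and its part was not tested.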
